A study of Drosophila melanogaster with 2 samples.

Results

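Of the 3087 peaks that the pooled list of a Klumpfuss ChIP-seq experiment placed on the main arms of the Drosophila melanogaster genome, 444 (14.4%, 95% Wilson interval 13.2 to 15.7) had their summit in an intron close to a transcription start. They were chosen by position alone: the summit lay more than 500 and at most 2000 bp from the nearest annotated start of any gene, inside a gene and in no annotated exon. The pooled list held 3126 peaks in all, of which 39 lay on other sequences and were not used. Chromatin was immunoprecipitated with an antibody against GFP from whole embryos aged 0 to 24 h of the strain klu-GFP, transgenic flies that express Klumpfuss fused to eGFP, and was sheared by sonication. The 2 biological replicates formed a single group, and control libraries were not analysed here. All samples carried the fusion, all cell types of the embryo were mixed, and no label used here says which regulatory sequence drives the fusion. Library depth is unknown, since the lists carry no read numbers, and every interval on a share covers counting error over peaks only. No test between groups was possible, and values are set beside those of all pooled peaks or of the pooled peaks most alike in position.

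Klumpfuss (Klu) belongs to the EGR/WT1 group of zinc finger proteins, which bind GC-rich DNA and regulate transcription. In flies it is known for its part in maintaining neuroblasts, the neural stem cells, and in forming sensory organs. Introns close to a start, the 5′-most intron above all, often hold enhancers and alternative promoters that set where and when a gene is transcribed. A ChIP-seq peak marks DNA that was recovered with the tagged protein more often than its surroundings, and its summit is the position where recovery was highest.

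The strongest of these intronic peaks had summits rich in A and T, as had the strongest at promoters and in introns farther from a start. A minority of the peaks near a start carried the GC-rich letters of an EGR-type site. The sequences are printed to show both kinds. Each runs from 50 bases before to 50 bases after the summit in the Release 6 assembly (dm6), as held by RefSeq. The first 5 belong to peaks among the 9 of highest signal and are given on the plus strand, with the longest run of A and T in capitals. They lay in CG11050 (chr2L:6612662-6612762), in Trl, which encodes the GAGA factor (chr3L:14759468-14759568), in CG32772 (chrX:4910311-4910411), in norpA, the phospholipase C of fly phototransduction (chrX:4324967-4325067), and in chif, a Dbf4-related gene needed for chorion gene amplification (chr2L:16351158-16351258).
CG11050: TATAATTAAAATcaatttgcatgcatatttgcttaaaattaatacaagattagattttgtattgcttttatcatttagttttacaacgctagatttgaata
Trl: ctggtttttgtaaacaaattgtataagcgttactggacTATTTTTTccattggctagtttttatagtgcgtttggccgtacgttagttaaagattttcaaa
CG32772: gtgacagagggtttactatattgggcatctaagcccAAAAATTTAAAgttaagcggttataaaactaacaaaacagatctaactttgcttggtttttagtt
norpA: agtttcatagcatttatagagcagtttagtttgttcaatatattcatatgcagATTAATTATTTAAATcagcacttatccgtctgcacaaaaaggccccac
chif: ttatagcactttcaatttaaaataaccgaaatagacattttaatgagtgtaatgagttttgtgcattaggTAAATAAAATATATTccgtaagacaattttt
The GC content of these windows was 20.8% in CG11050, 32.7% in Trl, CG32772 and norpA, and 23.8% in chif, and their longest A/T runs were 12, 8, 11, 15 and 15 bases long. The other 3 are from the 4 strongest peaks with GTGGGCG or GTGGGTG at the summit, and the first match in the printed direction is in capitals. MEP-1, a zinc finger gene (chr3L:2632979-2633079), is given on the plus strand. Mkp3, a phosphatase that acts on MAP kinase (chr3L:19071671-19071771), and Ptpmeg2, a tyrosine phosphatase gene (chrX:9641331-9641431), are given on the minus strand.
MEP-1: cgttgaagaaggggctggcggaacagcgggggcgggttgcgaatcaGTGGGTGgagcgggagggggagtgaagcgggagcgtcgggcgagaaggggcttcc
Mkp3: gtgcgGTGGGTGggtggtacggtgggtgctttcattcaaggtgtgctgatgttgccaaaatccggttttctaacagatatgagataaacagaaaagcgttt
Ptpmeg2: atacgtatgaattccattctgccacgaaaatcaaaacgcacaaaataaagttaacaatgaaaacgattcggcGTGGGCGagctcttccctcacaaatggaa
Their GC content was 69.3%, 46.5% and 40.6%, above that of the first 5, and their pooled signals were 138, 132 and 127. The letters for which these windows were chosen are themselves mostly G and C.

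Signal, the deposited value of a peak on a scale that no source used here explains, spread widely among the 444. The lowest value was 3.13, the median 106, the upper quartile 171 and the highest 1583. The median was the same to 3 digits as that of all pooled peaks (106), below that of promoter peaks with a summit within 500 bp of a start (122, n = 1583), and above that of peaks in introns over 2000 bp from a start (94.5, n = 567). Among the tenth of pooled peaks with the highest signal were 35 of the 444 (7.88%), 15 of the 567 far intronic peaks (2.65%) and 233 of the promoter peaks (14.7%).

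The strongest peak lay in intron 2 of CG11050, 1025 bp downstream of a start of that gene, with a pooled signal of 1583, 674 in replicate 1 and 918 in replicate 2. Adf1, which encodes a transcription factor with a Myb-related domain, held the next peak (2R:6662875-6663241). Its summit lay in intron 1, 794 bp downstream of an Adf1 start. This peak gave 1187 pooled, 556 in replicate 1 and 640.2 in replicate 2. The CG11050 and Adf1 peaks were high in each library, and neither rested on a single replicate. HmgZ, an HMG-box chromatin protein gene, followed with 1136 pooled, 441 and 682 at a summit 567 bp upstream of one of its own starts (2R:21703202-21703648). The peak in intron 2 of Trl (3L:14759321-14759701) gave 1120.0 pooled, 401 and 716, and lay 1531 bp from a Trl start. CG32772 gave 921 pooled, 412 and 509.0 in its intron 1, 1259 bp downstream of one of its starts. All 5 were higher in replicate 2 than in replicate 1. The order changed in each library, with Trl and HmgZ above Adf1 in replicate 2 and CG32772 above Trl in replicate 1.

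At norpA and CG3726 replicate 2 was not higher than replicate 1. The norpA peak lay in intron 1, 1408 bp downstream of a norpA start. It had 667 pooled, 336 in replicate 1 and 331 in replicate 2, and CG3726 had 713 pooled, 360.4 and 355. Both libraries were thus almost level there. The chif peak gave 592 pooled, 217 in replicate 1 and 355 in replicate 2, and was one of 5 among the 25 strongest with a further pooled peak within 500 bp of the nearest start.

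The 25 strongest peaks that were also in the conservative list, the stricter of the 2 series lists, covered 25 different genes and reached down to a signal of 343. Every one of them was in the thresholded lists of both replicates, and 19 were higher in replicate 2. The choice by pooled signal and conservative list favours peaks found in both. Of the 111 near-start peaks above the upper quartile of their own signals, 108 were in both lists. Signalling and channel genes among the hosts were Btk, a Tec-family tyrosine kinase (355), Mekk1, a kinase upstream of stress MAP kinases (346), for, a cGMP-dependent protein kinase (398), and KCNQ, a voltage-gated potassium channel (473). Transcription factor genes were Adf1, Trl, NFAT (438) and the forkhead gene CHES-1-like (391). Others encode a dynein heavy chain (Dhc64C, 424), a lysophospholipid acyltransferase (LPCAT, 438), a myosin phosphatase targeting subunit (MYPT-75D, 396), a fatty acid elongase (Baldspot, 383) and a KH-domain RNA-binding protein (mub, 343). Further hosts were CG9663 (768), CG9837 (534), CG4496 (528), CG42258 (375) and CG8128 (368).

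The largest ratio between replicates in that set was in Dhc64C, with 139 in replicate 1 and 288 in replicate 2. LPCAT went the other way, with 235 in replicate 1 and 192 in replicate 2, as did CHES-1-like with 229 and 173. Of the 25 summits, 22 were nearest to a start of their host, 16 downstream and 6 upstream of it, and 22 lay in an intron 1. The other 3 were nearest to another gene inside or beside the host: KCNQ to mlt, CHES-1-like to lncRNA:CR43287 and Btk to tRNA:Lys-TTT-1-1. X held 9 of the 25.

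**Figure D1:**
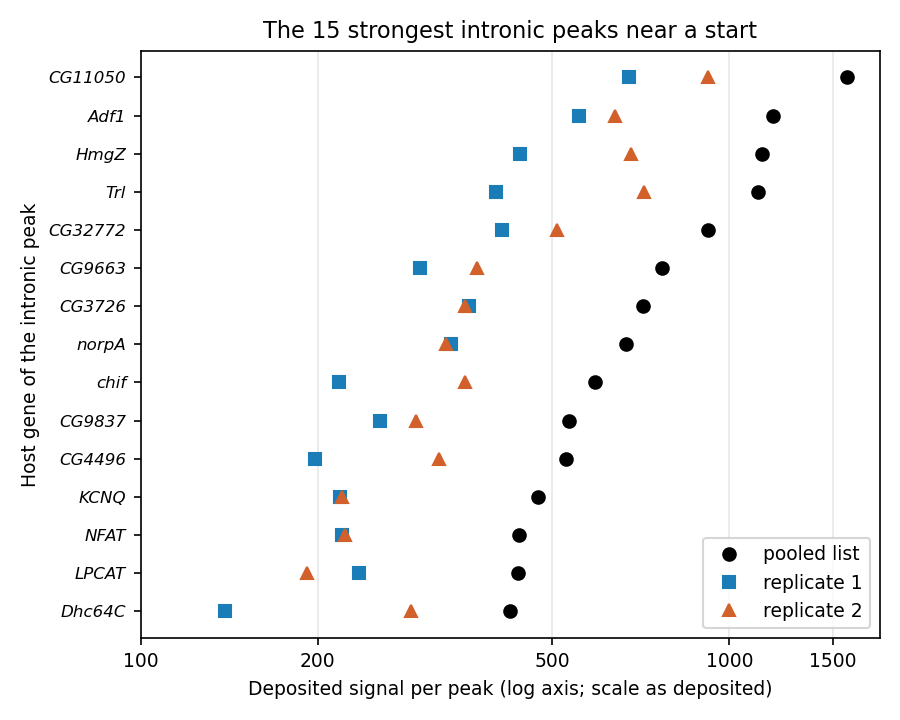
Deposited signal (log axis, scale as deposited) of the 15 strongest intronic peaks near a start that were also in the conservative list, by host gene: circles for the pooled list, squares for replicate 1 and triangles for replicate 2. The pooled values run from 424 in Dhc64C to 1583 in CG11050, and replicate 2 lies above replicate 1 in 12 of the 15.

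Of the 444 peaks, 201 (45.3%, 95% Wilson interval 40.7 to 49.9) overlapped a thresholded peak of both replicates by at least 1 bp, beside 41.3% of all pooled peaks. Replicate 1 alone held 30, replicate 2 alone 122, and neither list 91 (20.5%, beside 21.2% of all). The conservative list held 354 (79.7%), beside 73% of all pooled peaks. In far introns the share in both lists was lower, 185 of 567 (32.6%, 28.9 to 36.6), and it was 46.7% at promoters.

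The share found in both lists moved with signal. Split at the quartiles of signal over all pooled peaks, the near-start intronic peaks were in both lists in 16.7%, 8.27%, 59.4% and 97.4% from the weakest group to the strongest. Far intronic peaks gave 6.84%, 7.19%, 59.7% and 96.0% in the same groups. Both intronic classes were therefore within 2 percentage points of each other in each group but the weakest. Of the 15 near-start peaks found in both lists there, 14 overlapped a stronger pooled peak, as did all 13 such far intronic peaks, and without overlapping peaks 1 of 63 near-start peaks in the weakest group was in both lists. The strongest group held 75 of the 567 far peaks, and the near-start class had more of its peaks there. How far signal accounts for the difference between both classes was not tested.

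**Figure D2:**
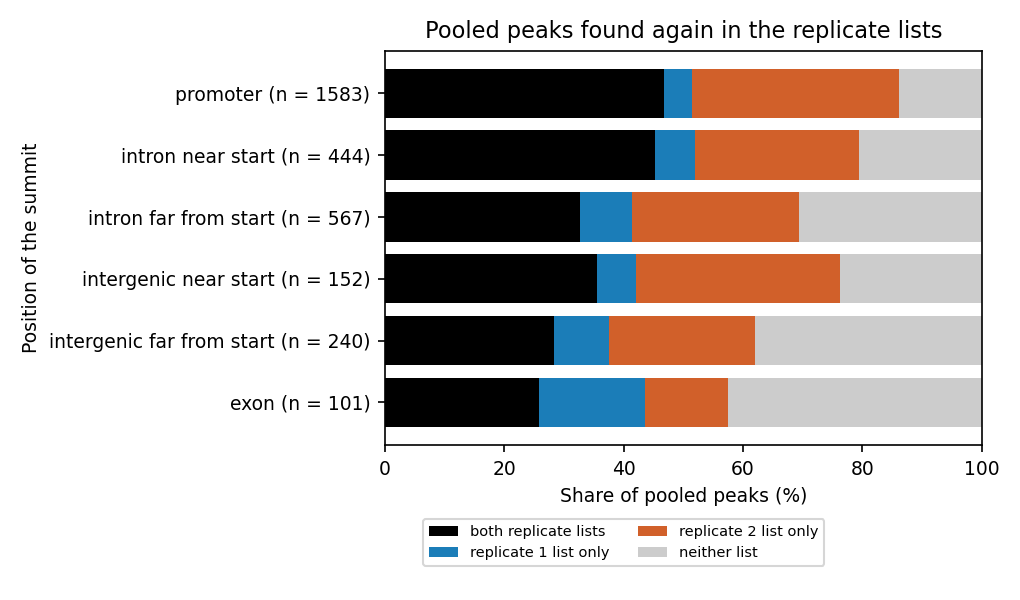
Share of pooled peaks (percent) of each position class that overlapped a thresholded peak of both replicates, of 1 replicate only or of neither. Intronic peaks near a start (n = 444) were in both lists in 45.3% and promoter peaks (n = 1583) in 46.7%, while far intronic peaks (n = 567) were in both in 32.6%.

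In the ranked lists, which also hold candidate peaks below the threshold, 435 of the 444 had an overlapping peak in replicate 1, 443 in replicate 2 and 434 in both. Over these 434, Spearman's rank correlation between the signals of both libraries was 0.620, beside 0.602 over 2989 pooled peaks and 0.530 over far intronic peaks. The points share their source embryos within a library, and peaks that lie side by side can share a replicate peak. Replicate 2 was higher at 327 of the 434 (75.3%), and the median ratio of replicate 2 to replicate 1 was 1.29, beside 1.39 over all. Peaks in both lists had a median pooled signal of 181, those in replicate 2 alone 94.9, those in replicate 1 alone 93.9 and those in neither 74.8.

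**Figure D3:**
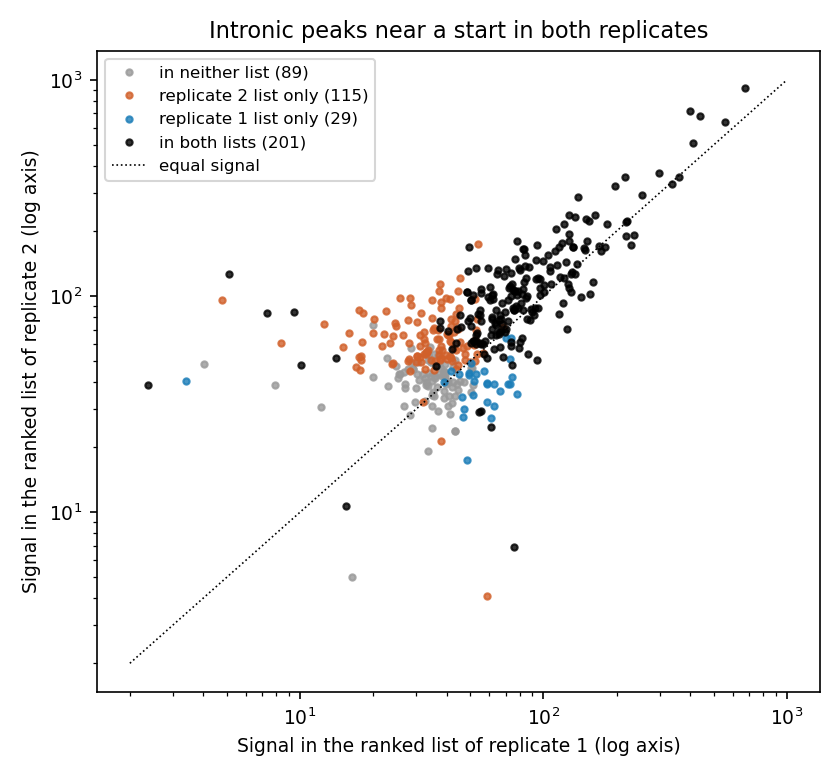
Signal of each intronic peak near a start in the ranked list of replicate 1 (horizontal) and replicate 2 (vertical), both on log axes, coloured by the thresholded lists that held it, with a dotted line at equal signal. The 434 peaks with a value in both lists had a Spearman's rank correlation of 0.620, and 327 lie above the line.

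Most of these peaks lay in a gene with several starts. The 444 peaks lay in 357 genes, of which 289 held 1, 56 held 2, 6 held 3, 5 held 4 and 1 held 5, and the host was protein-coding for 438. For 348 peaks (78.4%) the host had more than 1 annotated start, beside 66.8% for far intronic peaks. A host of several peaks counts once per peak here, and no share over all genes was computed. Genes with several starts have more intron near a start, so the choice by distance also bears on this share. The nearest start belonged to the host for 382 peaks (86.0%, 82.5 to 89.0). The summit lay downstream of that start in 257 (57.9%) and upstream of it, between 2 starts of the same gene, in 125 (28.2%). For the other 62 (14.0%) the nearest start belonged to a different gene nested in or next to the host, and 44 of these summits were upstream of it.

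Intron 1 of a host transcript held 367 of the summits (82.7%, 78.9 to 85.9), intron 2 held 51 and a later intron 26. Far intronic peaks were in an intron 1 in 318 of 567 (56.1%, 52.0 to 60.1). The distance that chose the peaks also limits which introns they can lie in, so these shares describe the class. Where transcripts of the host differed at the summit, the lowest intron number, the shortest intron and the nearest exon edge were taken separately. Intron lengths so taken had a median of 5281 bp and ranged from 60 to 105464 bp, against a median of 14039 bp for far intronic peaks. The median distance from summit to the nearest exon edge was 813 bp, and 35 summits lay within 200 bp of one. At 40 summits more than 1 gene covered the position.

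Peaks grew sparser with distance from a start. Introns up to 1000 bp from a start, beyond the 500 bp of the promoter, held 222 of the 444, a density of 50.3 per Mb of such intron, and densities fell to 34.8 per Mb in the next bin to 1500 bp, 28.0 to 2000 bp, 20.7 to 5000 bp and 10.4 beyond. The order was the same in the lists of both replicates. Over the whole range of 500 to 2000 bp the density was 38.8 per Mb in introns, in 11.4 Mb, and 20.6 per Mb in intergenic DNA at the same distances, in 7.39 Mb, a ratio of 1.89. Replicate 1 alone gave 19.2 and 9.75 per Mb and replicate 2 gave 31.7 and 16.4. Promoters had 87.2 per Mb. Signal hardly moved over the same distances, with medians of 106, 108 and 98.2 in the 3 near bins.

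**Figure D4:**
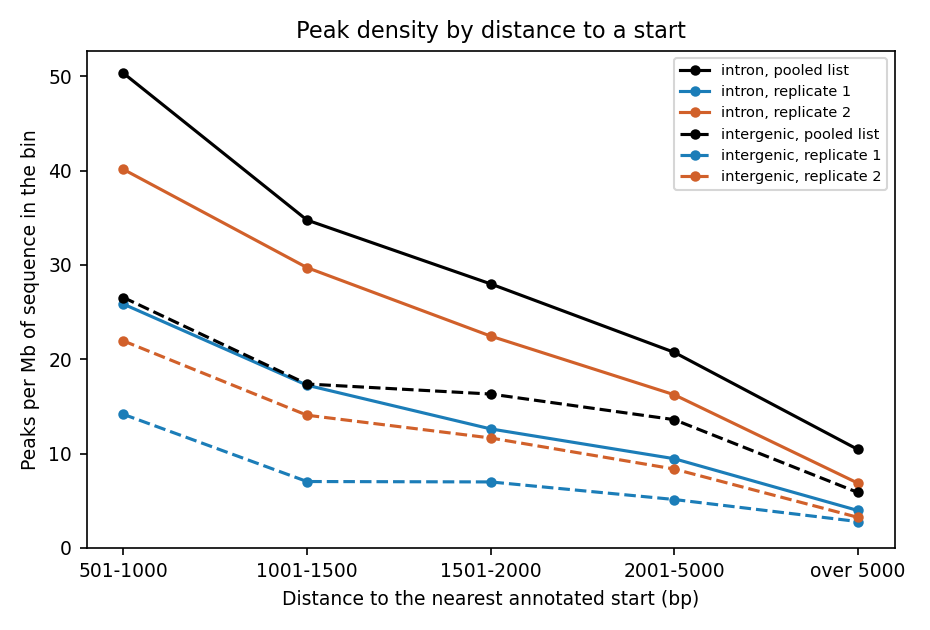
Peaks per Mb of sequence in each bin of distance to the nearest annotated start, for introns (solid) and intergenic DNA (dashed), in the pooled list and in the list of each replicate. In the pooled list the intronic density falls from 50.3 per Mb in the bin nearest the start to 10.4 beyond 5000 bp, and it is above the intergenic density in every bin of each of the 3 lists.

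A minority of these peaks came with a further peak at the start itself. Another pooled peak lay within 500 bp of the nearest start for 86 of the 444 (19.4%, 16.0 to 23.3), beside 74 of 567 far intronic peaks (13.1%), 18.4% of intergenic peaks at the same distances and 14.5% of all pooled peaks. When any start of the host was counted, 160 (36.0%) had one, beside 26.8% in far introns. A peak's own summit was never counted. The 14.5% includes promoter peaks (13.6%), for which the further peak lies beside their own near that start. The 86 had a median signal of 116 and were in both replicate lists in 53.5%, and the other 358 had 106 and 43.3%.

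Among the arms, X held 109 of the 444, or 18.3% of its pooled peaks, and 3R held 120 (16.9%). The shares were 13.9% on 2R, 11.3% on 3L and 11.2% on 2L. Chromosome 4 had a single pooled peak, which was not one of them. Signals were similar, with medians from 96.9 on 3R to 120.2 on 3L.

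At the summits the base composition dipped. The GC content within 50 bp of the summit averaged 34.8% ± 0.473 (SE over 444 peaks), against 41.1% ± 0.343 in windows of the same width 1 kb away, a difference of -6.27 ± 0.525 percentage points. The summit window was lower than its flanks at 332 peaks (74.8%), beside 70.7% of all pooled peaks. The mean was 34.5% in the list of replicate 1 and 33.3% in that of replicate 2, with flanks of 41.0% and 40.6%. Promoter summits averaged 35.2% with flanks of 44.7%, and far intronic summits 35.9% with flanks of 40.2%. The summits of the 3 classes thus lay closer to each other than their surroundings did.

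Stronger peaks had summits richer in A and T. Split at the quartiles of their own signals, from weakest to strongest, the mean GC content was 38.6%, 36.0%, 34.4% and 30.2%. The 25 strongest averaged 29.3% ± 1.52 (SE), from 18.8% in Btk and CG42258 to 46.5% in LPCAT and mub. Far intronic peaks fell from 40.7% to 30.6% and promoter peaks from 42.2% to 30.5% between the weakest and the strongest group at the quartiles of all pooled peaks, where the near-start peaks fell from 39.4% to 30.6%. Peaks found in replicate 1 alone had 40.1% ± 1.95 at the summit (n = 30) and those in neither list 38.3% ± 1.07 (n = 91), against 32.8% ± 0.844 for replicate 2 alone (n = 122) and 33.6% ± 0.670 for both lists (n = 201). The part of base composition in which library found a peak was not tested.

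**Figure D5:**
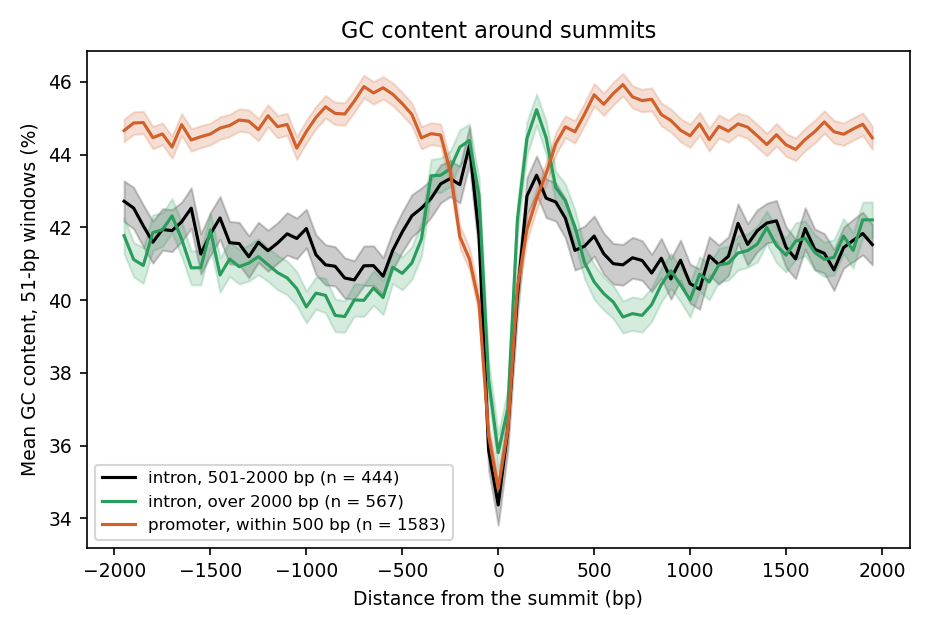
Mean GC content (percent) in 51-bp windows by distance from the summit, for intronic peaks near a start, intronic peaks farther away and promoter peaks. The band is 1 SE over peaks on each side. All 3 classes dip at the summit. At 150 bp before it both intronic classes (44.3% near a start and 44.4% farther away) lie above promoters (41.1%), and at 500 bp after it they lie below (41.8% and 40.5% against 45.6%).

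Short sequence motifs were counted on both strands within 50 bp of the summit, and in both windows 1 kb away. The EGR-type letters GTGGGCG or GTGGGTG were at 20 of the 444 summits (4.50%, 2.93 to 6.85), beside 4.5% of all pooled peaks and 3.27% of the flanking windows. The interval includes both other values. The 20 had a mean GC content of 52.8% ± 2.07 and a median signal of 92.9, and 7 were in both replicate lists. The letters that chose these peaks are themselves mostly G and C, which bears on that GC content. The strongest was in CG8547 with a signal of 248, and mam, a nuclear co-activator of Notch, Akt, a growth-control kinase, and sim, a midline transcription factor, were also hosts.

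TATAAA was at 98 summits (22.1%, 18.5 to 26.2), beside 20.1% of all pooled peaks and 10.5% of the flanking windows, and AAAAAAA was at 70 (15.8%, 12.7 to 19.4), beside 12.8% of all and 11.3% of flanks. Both consist of A and T, of which the summits held more. GAGAG, the letters of the GAGA factor, was at 62 (14.0%, 11.0 to 17.5), beside 10.7% of all and 15.5% of the flanks. Of these 62 peaks 18 were in both replicate lists (29.0%), and their mean GC content was 39.8%.

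Other letters were at shares on either side of those of all pooled peaks. TATCGAT, the DNA replication-related element, was at 2 summits (0.450%, 0.124 to 1.63), in for and shep, beside 2.92% of all pooled peaks and 5.18% of promoter peaks. CGATA, the letters of BEAF-32, was at 46 (10.4%, 7.86 to 13.5), beside 14.3% of all and 18.4% of promoter peaks. Every TATCGAT also holds CGATA on the opposite strand, so such a summit is counted under both. GCCAT, the core of the Pho site, was at 51 (11.5%, 8.85 to 14.8), beside 14.4% of all and 16.0% of the flanks, and CACACA at 37 (8.33%, 6.11 to 11.3), beside 7.77% of all and 14.1% of the flanks. E-box letters CANNTG were at 165 (37.2%), beside 35.6% of all and 41.7% of the flanks. A match says only that the letters lie in the window.

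Genes of 12 lists, chosen with earlier results of these data known, were read as hosts. Of 229 list genes found in the annotation, 29 (12.7%) held at least 1 of these peaks, beside 351 of the 13945 protein-coding genes annotated there (2.52%), and they held 37 peaks. Long genes with several starts have more intron near a start, and gene length and start number were not matched.

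In EGFR, FGF and Ras signalling 5 of 19 genes held 7 peaks. The adaptor gene drk had a signal of 238, with 117 in replicate 1 and 122 in replicate 2, although the nearest start belonged to mars. The FGF ligand gene ths had 193 pooled, 82.1 and 108. The feedback inhibitor gene sty had 131 pooled, 64.0 and 66.1. The Ets factor gene pnt held 3, from 82.0 to 130 pooled, none in both replicate lists, and the FGF receptor gene htl held 1 of 79.5. The upper 3 of these genes were in both lists and the lower ones were not. The pnt peaks of 130 and 85.9 were nearest to a start of lncRNA:CR46090.

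Of 22 neuroblast identity and division genes, 2 were hosts, brat and dlg1, beside 2.52% of all protein-coding genes. brat, a tumour suppressor inherited by the differentiating daughter of a neuroblast, had the peak of highest signal in this list, 320 pooled, 128 in replicate 1 and 193 in replicate 2. The polarity gene dlg1 held 3 peaks of 164, 89.8 and 72.1. No temporal factor gene of 12 and no insulator or promoter-binding factor gene of 13 was a host, although 5 of the latter had a peak at a promoter. At the 2.52% of all protein-coding genes, lists this short would hold less than 1 host on average. Adf1 and Trl, whose products also bind promoters, were counted with the chromatin genes. No peak of this kind lay within 20 kb of klu itself.

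Among 24 Polycomb, trithorax and chromatin genes 4 were hosts. Adf1 and Trl are described above, and Trl held a further peak of 138. The Polycomb subunit gene ph-p had 205 pooled, 79.7 in replicate 1 and 135 in replicate 2. psq, which encodes a GAGA-binding protein, had 92.6 pooled and 44.2 in replicate 2, with no overlapping ranked peak in replicate 1. Of the 5 peaks in this list 4 were in both replicate lists.

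In the Notch list 2 of 18 genes were hosts, mam with 120.1 pooled, 53.1 and 67.3, and the ubiquitin ligase gene neur with 82.1 pooled, 32.5 and 63.4. Of 22 Wnt, Hedgehog and Dpp genes 1 was a host, Mad, the Dpp signal transducer, with 225 pooled, 121 and 93.0. Counted by the gene of the nearest start instead, this list had 2 genes, Mad and brk.

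The ecdysone list had 2 of 12, the receptor gene EcR at 152 and the nuclear receptor gene Hr4 with peaks of 111 and 97.8. The EcR peak was nearest to a start of tRNA:Asn-GTT-1-1, and the Hr4 peak of 111 to a start of CR46447. The insulin list had 3 of 16 found genes, with InR at 148, Mnt at 103 and Akt at 85.5. Axon guidance had 3 of 25, Ten-a at 103, NetB at 90.7 and sli at 80.3, and none was in both replicate lists. The NetB summit was nearest to a start of hog, and the sli summit to a start of lncRNA:CR44373. The Hox genes Ubx (74.98 pooled, 17.03 in replicate 1 and 47.2 in replicate 2) and Abd-B (69.3 pooled, 37.0 and 29.5) were the 2 of 25 homeobox genes with a peak, and neither was in both lists. For the Ubx peak the nearest start belonged to asRNA:PS4.

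The limits of distance cut a continuous run of positions. Just inside the near limit lay the peaks in tapas and pAbp, both at 504 bp, with signals of 81.2 and 153, and just outside it those in egr at 498 bp (111) and dpy at 496 bp (75.7). At the far limit the peaks in lncRNA:CR44320 at 1998 bp (139) and CG3764 at 1990 bp (187) were inside, and those in NFAT, 1 bp beyond it (182), and ps at 2013 bp (97.3) were outside.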

How the data were processed

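Peaks were read as the authors deposited them: a pooled and a conservative thresholded list for the series, and a ranked and a thresholded list for each of the 2 biological replicates, in dm6 per the labels. The signal of a peak (column 7) is the authors' deposited value, on a scale that no source used here explains. The score (column 5), as the authors deposited it, runs to 1000 and is at least 830 in the thresholded lists. Aligner, peak caller and depth were not given in the sources used here. Per the labels, both replicates belong to 1 group.

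Peaks on 6 main arms were used, and 39 pooled peaks elsewhere were left out. Starts, exons and introns were those of Ensembl release 115 (BDGP 6.54), with transposon genes left out, and sequence from RefSeq's Release 6 genome. A peak was found again when it overlapped another by at least 1 bp. The signal in a replicate is that of the overlapping ranked peak with the nearest summit. Intervals are 95% Wilson intervals, and no tests across peaks were run. Named genes are the hosts of the 25 peaks of highest pooled signal also in the conservative list, up to 3 peaks of each gene list, and those at each distance limit. Single peaks with an EGR-type motif and the hosts of several peaks were chosen after their values were seen. Some named genes and 1 gene list are not reported here. The members and lists were chosen with earlier results of these data known. The code was checked on planted data. Alternatives were the conservative list, each replicate alone, peaks above the median signal, lists without peaks that overlap a stronger one, other distances, protein-coding starts or hosts, and other windows and flanks. Python 3.11.15, numpy 2.4.6, pandas 2.3.3, scipy 1.17.1 and matplotlib 3.10.9 were used.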

Additional observations from a re-analysis of the deposited data

How the results depend on the processing

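The share of pooled peaks in this class (14.4%) was 15.5% in the conservative list, 19.3% with an inner limit of 250 bp, 7.19% for the distances up to 1000 bp, 7.19% for those of 1000 to 2000 bp and 13.8% with protein-coding starts only. The share in both replicate lists (45.3%) was 52.8% for the conservative list and 79.2% for peaks above the median signal. The GC difference between summit and flank (-6.27 points) was -8.82 above the median signal, -4.46 in windows of 100 bp each side, -6.98 with flanks 2 kb away, and from -7.37 to -6.55 in the list of a single replicate.

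The excess of EGR-type letters at summits over flanks (1.24 points) was 1.48 in the conservative list, 0 above the median signal, 1.58 up to 1000 bp, 0.901 from 1000 to 2000 bp, 1.76 with protein-coding starts, 1.37 with protein-coding hosts, 0.225 within 25 bp, 1.91 within 100 bp, 0.450 with flanks 2 kb away, and from 0.967 to 1.14 in single replicates. The sign of the GAGAG difference turned in 2 of 13 settings, CGATA in 2 and TATCGAT in 1, and TATAAA and AAAAAAA in none. The cause was not tested.

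Peaks in list genes (37 of 444) numbered 23 of 220 in the list of replicate 1 and 28 of 362 in that of replicate 2. By the gene of the nearest start instead of the host they numbered 30 of 444. Alternatives for position and density were added after seeing the data. The share nearest to a host start (86.0%) was 86.9% above the median signal and 91.5% with protein-coding starts. The intronic to intergenic density ratio (1.89) was 1.98 in the conservative list, 2.34 above the median signal, 1.82 without peaks that overlap a stronger one, and from 1.93 to 1.98 in single replicates. No paired analysis was possible because both replicates belong to 1 group and no groups were compared. Unknown depth limits which weak peaks a list can hold.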

Other observations

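Most hosts held 1 peak of this kind (289 of 357), and in 22 of the 56 hosts with 2 the summits were under 300 bp apart. CHES-1-like, a forkhead gene on X, held 5 over 8593 bp, with signals from 83.5 to 391, and 4 of them were in both replicate lists. HmgZ, Tlk, Kank, CG1677 and shn held 4 each. In Tlk, a kinase gene, the 4 summits spanned 25931 bp and had signals from 80.1 to 217. These hosts were chosen after their values were seen. The 4 in CG1677 were nearest to starts of CBP, brk and CG42780, genes other than the host.

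A small set of low signals came from peaks beside stronger ones. Of the 444, 31 (6.98%) overlapped a stronger pooled peak, with a median signal of 17.7 against 111 for the rest, and 22 of the 23 peaks with a signal under 50 were among them. Of the 31, 18 were in both replicate lists, where they can share a peak with the stronger neighbour.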
